A study of Mus musculus with 76 samples.

Results

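The nuclear genes of respiratory complexes II to V were followed in the dorsal forebrain of mouse embryos whose parents had been exposed to an insecticide before mating. The genes were the protein-coding genes of the expression table whose GENCODE M21 symbol begins with Cox4, Cox5, Cox6, Cox7, Cox8, Uqcr or Atp5, or is Sdha, Sdhb, Sdhc or Sdhd, a rule that uses no expression value, although it was drawn up with earlier results of these data known. There were 43 of them among the 14823 genes of the table: 4 of complex II, 8 of complex III, 14 of complex IV and 17 of complex V. A low-count filter left 42 of them in the tests, all but Cox7a1, among 14339 genes tested. Another 4 genes that the prefixes cover, Cox6a2, Cox7b2, Cox8b and Cox8c, were not analysed here.

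RNA was sequenced from 76 libraries of C57BL/6J forebrain tissue at embryonic day 16, 1 library per labelled embryo sample. Fathers, mothers or both had received α-cypermethrin, which belongs to the pyrethroid insecticides, in 1 of 2 doses, 0.3 or 10, whose unit the labels leave out, and the other parents vehicle, over 28 days: first 7 days on, then 3 rounds of 2 days off and 5 days on. The parents were then mated, so the label of an embryo names the exposed parent and the dose, and the embryos are the offspring and not the animals that were dosed. The groups were Paternal_0.3Cyp (12 libraries), Maternal_0.3Cyp (12), Both_0.3Cyp (12), Paternal_10Cyp (10), Maternal_10Cyp (8), Both_10Cyp (10) and Ctrl (12, both parents on vehicle), each with female and male embryos from 2 labelled batches. No litter is labelled, so the p-values measure the spread between libraries, some of which may be littermates. The 6 comparisons with Ctrl share its 12 libraries.

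Oxidative phosphorylation takes place in the inner mitochondrial membrane. Complex II, succinate dehydrogenase, passes electrons from succinate to ubiquinone and is also an enzyme of the citric acid cycle. Complex III hands them to cytochrome c, complex IV passes them from cytochrome c to oxygen, and complex V, ATP synthase, uses the proton gradient built on the way to make ATP. All subunits of complex II are encoded in the nucleus, whereas complexes III, IV and V combine nuclear subunits with a few made inside the mitochondrion. In the developing cortex, progenitor cells are known to rely more on glycolysis than neurons do.

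Library totals ran from 17735597 to 41419156 counts. They were uneven, since all 10 libraries of Both_10Cyp, with 21154587 to 33969582 counts, held more than any Ctrl library. The dorsal forebrain markers Emx1 and Tbr1 were present in every library, Emx1 between 24.4 and 116 and Tbr1 between 195 and 520 normalised CPM (read counts scaled to equal library size after TMM adjustment). The member genes together took a lowest, median and highest share of 0.646%, 0.685% and 0.743% of the counts in Maternal_10Cyp, against 0.542%, 0.590% and 0.657% in Ctrl. The medians of the other groups were 0.639% in Paternal_0.3Cyp, 0.623% in Maternal_0.3Cyp, 0.645% in Both_0.3Cyp, 0.670% in Paternal_10Cyp and 0.663% in Both_10Cyp, all above the Ctrl median. The share differed between the batches too, with a Ctrl median of 0.621% in batch 1 and 0.570% in batch 2, and batch is a term of every fit unless another is named.

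One library stood apart in these genes. In Paternal_0.3Cyp replicate 8 the member share was 0.983%, whereas the other 11 libraries of its group lay between 0.583% and 0.694% and the next highest library of the series had 0.743%. It was the highest of all 76 libraries for 40 of the 43 members, with a median ratio of 1.83 to the median of the other libraries. Its deviation from the other libraries ran with transcript length: the rank correlation of the 2 was -0.69 across 14327 genes, a description across genes that share 1 library. What made the library differ was not tested. Results for Paternal_0.3Cyp are therefore given with and without it.

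**Figure D1:**
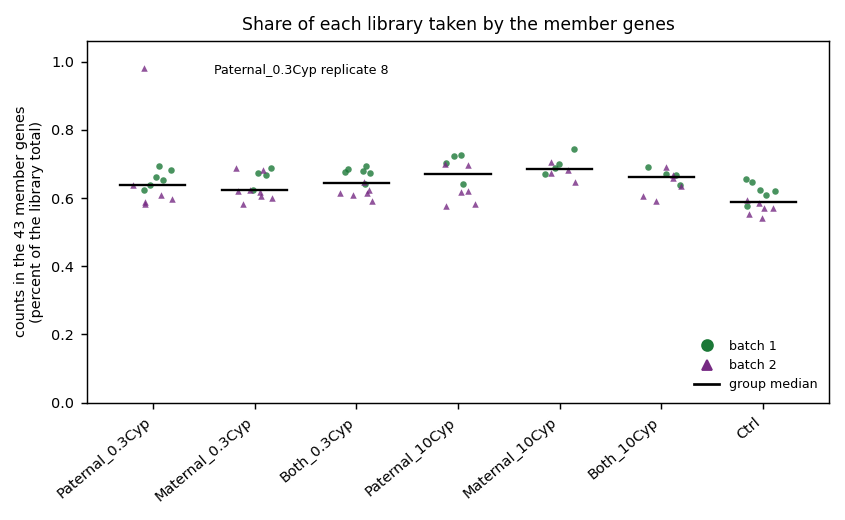
Share of each library's counts that fell in the 43 member genes, in percent, for the 6 exposed groups and Ctrl. Each point is a library, green circles for batch 1 and purple triangles for batch 2, and the black line is the group median. Every exposed median lies above the Ctrl median of 0.590%, and Paternal_0.3Cyp replicate 8 lies alone at 0.983%.

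Where members differed from Ctrl, they were higher. A member was called when its adjusted p was under 0.05 (edgeR quasi-likelihood, Benjamini-Hochberg over all genes tested, 2-sided), and "rose" is used of called members only. In Maternal_10Cyp 36 of 42 rose, where 40.8% of all genes tested were called in either direction and 20.4% were called higher. In Paternal_0.3Cyp 33 rose with all libraries, against 27.6% of all genes called and 15.4% called higher, and in Paternal_10Cyp 25, against 21.5% and 10.7%. The Paternal_10Cyp count was 10 (10.4% of all genes) without the libraries high in diencephalon markers and 11 (16.6% of all genes) with replicate number as a block. In Both_10Cyp 10 rose, which is 23.8% of the members where only 3.91% of all genes were called and 2.34% were called higher. In Maternal_0.3Cyp and Both_0.3Cyp 6 and 8 members rose, 14.3% and 19.0% of those tested, which is below the 23.7% and 22.3% of all genes called there and not far from the 10.9% and 10.5% called higher. This count depended on the fit: with only the groups compared 30 and 35 members were called (33.8% and 35.1% of all genes), and with limma 24 and 35 (34.6% and 36.8%). None was called lower in any of the 6 comparisons, where 12.2%, 12.8%, 11.8%, 10.8%, 20.4% and 1.58% of all genes were called lower in Paternal_0.3Cyp, Maternal_0.3Cyp, Both_0.3Cyp, Paternal_10Cyp, Maternal_10Cyp and Both_10Cyp. The joint test of the 6 exposed groups against Ctrl called 21 members, against 21.7% of all genes.

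The differences were small. The median log2 fold change of the 42 members was 0.21 in Paternal_0.3Cyp, 0.13 in Maternal_0.3Cyp, 0.14 in Both_0.3Cyp, 0.20 in Paternal_10Cyp, 0.24 in Maternal_10Cyp and 0.16 in Both_10Cyp. Over all genes tested the medians lay between -0.013 and 0.011. With all libraries, as in the counts that follow, Cox7b and Atp5j were called in all 6 comparisons. Without Paternal_0.3Cyp replicate 8 neither was called in that group (edgeR adjusted p = 0.0513 and 0.0594). Uqcr10, Uqcr11, Cox7c, Atp5k and Atp5mpl were called in 5, Uqcrc2, Uqcrq and Atp5j2 in 4, 17 members in 3, 8 in 2, and Cox6a1 and Atp5a1 in Maternal_10Cyp alone. Sdha, Cox4i2, Atp5g1, Atp5g2 and Atp5s were called in none. Because the tissue was measured in bulk, more cells rich in a transcript and more transcript per cell cannot be told apart.

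**Figure D2:**
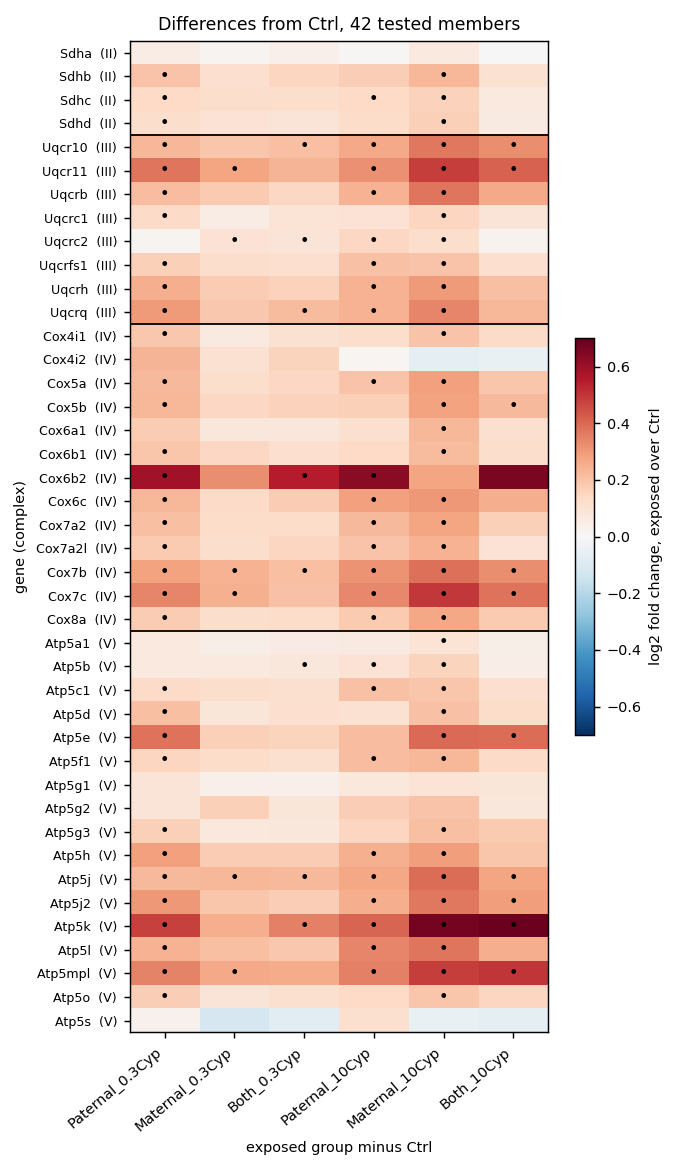
Log2 fold change of the 42 tested members (rows, ordered by complex) in each exposed group over Ctrl (columns), red where higher in the exposed group and blue where lower. A dot marks an adjusted p under 0.05 by edgeR quasi-likelihood. Red prevails in all columns, with 36 dots in Maternal_10Cyp and 6 in Maternal_0.3Cyp, and Atp5k reaches 0.69 in Both_10Cyp.

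Among themselves the members moved together from library to library. After group, batch and sex were fitted, the 861 pairs of members had a median correlation of 0.77 over the 76 libraries, from -0.28 to 0.94, and 856 were positive. This is a description, since all pairs share the same libraries and their depth. Among these libraries is Paternal_0.3Cyp replicate 8, which was high for most members. The correlations were not computed without it or for other genes.

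The sequence before the start of 4 genes is shown because they stand at the 2 ends of the range: Atp5k had the largest rise in Maternal_10Cyp and in Both_10Cyp, Uqcr11 and Cox7b were called in 5 and 6 comparisons with all libraries, and Sdha was called in none. RefSeq promoters on GRCm38.p6, from 250 bases before to 50 after the transcription start, were found for 34 of the 43 members. Capitals mark matches on either strand to 3 motifs of factors known for nuclear respiratory genes: GCATGCGC for NRF1, CCGGAAG for the ETS family that includes GABP, and AAGATGGC for YY1. In the Atp5k window 2 NRF1 matches, 1 on each strand, overlap, and no other motifs overlap in the sequences shown.
Atp5k, chr5:108434350-108434649, minus strand: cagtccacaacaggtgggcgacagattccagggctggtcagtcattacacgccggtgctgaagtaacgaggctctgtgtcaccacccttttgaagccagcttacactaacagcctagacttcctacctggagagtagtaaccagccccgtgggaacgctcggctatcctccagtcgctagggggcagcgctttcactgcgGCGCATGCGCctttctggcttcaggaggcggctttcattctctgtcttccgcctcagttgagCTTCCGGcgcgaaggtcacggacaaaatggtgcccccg
Uqcr11, chr10:80406772-80407071, minus strand: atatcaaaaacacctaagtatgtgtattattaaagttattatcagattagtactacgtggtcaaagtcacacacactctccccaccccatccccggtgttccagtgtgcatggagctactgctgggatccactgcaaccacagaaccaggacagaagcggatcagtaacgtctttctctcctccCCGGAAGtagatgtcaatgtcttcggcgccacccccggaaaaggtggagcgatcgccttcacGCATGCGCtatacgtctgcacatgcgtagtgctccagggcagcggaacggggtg
Cox7b, chrX:106015450-106015749, plus strand: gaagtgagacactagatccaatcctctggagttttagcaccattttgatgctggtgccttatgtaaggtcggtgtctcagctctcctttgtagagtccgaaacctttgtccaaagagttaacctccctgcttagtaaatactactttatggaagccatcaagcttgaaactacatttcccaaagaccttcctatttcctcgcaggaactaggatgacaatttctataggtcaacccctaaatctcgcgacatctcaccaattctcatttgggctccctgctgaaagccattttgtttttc
Sdha, chr13:74350191-74350490, minus strand: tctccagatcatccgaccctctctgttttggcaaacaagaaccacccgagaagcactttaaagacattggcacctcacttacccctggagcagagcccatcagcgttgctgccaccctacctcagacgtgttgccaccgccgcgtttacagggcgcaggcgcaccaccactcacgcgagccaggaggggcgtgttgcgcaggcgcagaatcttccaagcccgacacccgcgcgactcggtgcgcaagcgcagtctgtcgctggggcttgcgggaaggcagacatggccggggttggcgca
The Atp5k window holds 2 matches to the NRF1 motif and 1 to the ETS motif, the Uqcr11 window 1 to each of these, and the other windows none. The NRF1 motif lay in the promoters of 7 of 34 members (20.6%), where 3.05% of 27025 genes with a promoter in the table hold it. The ETS motif lay in 12 (35.3%, all genes 9.93%) and the YY1 motif in 3 (8.82%, all genes 3.19%). A match says that the letters are there, not that a factor binds.

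Levels per length differed widely between members. In Ctrl, Atp5b, the catalytic beta subunit of ATP synthase, had the highest level per kilobase of transcript, 548 ± 22.6 CPM per kb (SD, n = 12). Cox6a1 and Cox4i1, both nuclear subunits of complex IV, followed with 435 ± 45.2 and 397 ± 28.7 CPM per kb, which lie within each other's spread, and then Atp5a1, the alpha subunit, with 323 ± 15.4. Complex II was lower: Sdhb, its iron-sulfur subunit, had 106 ± 8.57, Sdha, the flavoprotein that oxidises succinate, 62.2 ± 2.78, and the membrane anchors Sdhd and Sdhc 55.5 ± 3.60 and 34.2 ± 2.32 CPM per kb. Lowest was Cox7a1, the member left out of the tests, with 0.495 ± 0.302 CPM per kb. Among the tested members the isoforms Cox6b2, with 1.89 ± 0.851 CPM per kb, and Cox4i2, with 1.85 ± 0.675, stood lowest. These 2 do not differ beyond their spread. The lengths are those of annotated transcripts, and reads of near-identical copies, such as processed pseudogenes, may be split in the deposited counts.

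In complex II 3 of 4 genes rose in Maternal_10Cyp and Paternal_0.3Cyp and 1 in Paternal_10Cyp. These counts, and those of the other complexes below, use all libraries unless replicate 8 is named. Of all genes tested 20.4% were called higher in Maternal_10Cyp, 15.4% in Paternal_0.3Cyp, 10.7% in Paternal_10Cyp and 2.34% in Both_10Cyp. In Maternal_0.3Cyp and Both_0.3Cyp 10.9% and 10.5% were. Sdhb, Sdhc and Sdhd rose in Paternal_0.3Cyp and Maternal_10Cyp, Sdhc also in Paternal_10Cyp, and no complex II gene was called in the other 3 groups (edgeR quasi-likelihood; 2, 2 and 0 of 4 at an unadjusted p under 0.05 in Maternal_0.3Cyp, Both_0.3Cyp and Both_10Cyp). Sdhb (ENSMUSG00000009863; chromosome 4, 140961203 to 140979193, plus strand, mm10 as all positions here) had a lowest, median and highest level of 134, 139.6 and 166 normalised CPM in Maternal_10Cyp and 109, 122 and 137 in Ctrl. Of the 8 exposed libraries 6 lay above the highest Ctrl library, and the log2 fold change was 0.23 ± 0.070 (SE; edgeR adjusted p = 0.00644). Sdhc and Sdhd had 0.16 ± 0.054 and 0.17 ± 0.054 there (edgeR adjusted p = 0.0143 and 0.00939).

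Sdha (ENSMUSG00000021577; chromosome 13, 74322254 to 74350280, minus strand) was the steadiest of the 4. Its lowest, median and highest levels were 172, 183 and 214 in Paternal_0.3Cyp, 165, 181 and 200.04 in Maternal_0.3Cyp, 176, 183 and 199 in Both_0.3Cyp, 172, 182 and 193 in Paternal_10Cyp, 180.0, 187 and 201 in Maternal_10Cyp, 171, 180.2 and 193 in Both_10Cyp, and 171, 178 and 195 in Ctrl (normalised CPM). The ranges of all 7 groups overlapped. Its log2 fold changes lay between 0.0044 in Both_10Cyp and 0.066 ± 0.032 in Maternal_10Cyp, where edgeR gave an adjusted p of 0.0898. Its SEs ran from 0.029 to 0.032.

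In complex III all 8 genes rose in Maternal_10Cyp, 7 each in Paternal_0.3Cyp and Paternal_10Cyp, 3 in Both_0.3Cyp and 2 each in Maternal_0.3Cyp and Both_10Cyp. Without Paternal_0.3Cyp replicate 8 only Uqcr11 and Uqcrq of this complex were called in that group. Uqcr11 (ENSMUSG00000020163; chromosome 10, 80402997 to 80406830, minus strand), a small accessory subunit, had the largest fold change of complex III in Maternal_10Cyp. Its lowest, median and highest levels were 41.3, 48.4 and 105 in Paternal_0.3Cyp, 39.9, 49.1 and 56.0 in Maternal_0.3Cyp, 39.7, 48.3 and 58.7 in Both_0.3Cyp, 36.0, 49.2 and 63.8 in Paternal_10Cyp, 52.2, 57.3 and 64.2 in Maternal_10Cyp, 44.9, 55.7 and 59.8 in Both_10Cyp, and 32.8, 40.3 and 51.3 in Ctrl (normalised CPM). All 8 libraries of Maternal_10Cyp lay above the highest Ctrl library, as did 7 of 10 in Both_10Cyp and 4 of 12 in Paternal_0.3Cyp, whose highest library is replicate 8. The log2 fold change was 0.48 ± 0.10 in Maternal_10Cyp (edgeR adjusted p = 0.000255), 0.41 ± 0.094 in Both_10Cyp (edgeR adjusted p = 0.0153) and 0.28 ± 0.091 in Maternal_0.3Cyp (edgeR adjusted p = 0.0234).

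Uqcr10, another small subunit, had levels of 43.6, 48.2 and 51.1 normalised CPM in Maternal_10Cyp, 40.3, 45.0 and 52.2 in Both_10Cyp and 26.9, 37.4 and 43.9 in Ctrl (lowest, median and highest). In each of these exposed groups 7 libraries exceeded every Ctrl library, and its log2 fold changes were 0.37 ± 0.084 and 0.32 ± 0.079 in Maternal_10Cyp and Both_10Cyp (edgeR adjusted p = 0.000544 and 0.0202). Uqcrc2, a large core subunit, showed another order of groups. Its levels were 178, 197 and 222 CPM in Paternal_10Cyp and 162, 178 and 189 in Ctrl, with 6 of 10 exposed libraries above every Ctrl library. Uqcrc2 rose in Paternal_10Cyp by 0.15 ± 0.031, in Maternal_10Cyp by 0.12 ± 0.033, in Maternal_0.3Cyp by 0.10 ± 0.029 and in Both_0.3Cyp by 0.091 ± 0.029 (edgeR adjusted p = 0.00235, 0.00232, 0.0122 and 0.0211). It had 0.021 ± 0.029 in Paternal_0.3Cyp and 0.027 ± 0.031 in Both_10Cyp, neither called, and it is 1 of the 3 members for which Paternal_0.3Cyp replicate 8 was not the highest library. The partner core subunit Uqcrc1 and Uqcrfs1, the Rieske iron-sulfur protein, rose by 0.15 ± 0.050 and 0.20 ± 0.059 in Maternal_10Cyp (edgeR adjusted p = 0.0137 and 0.00615).

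In complex IV 11 of 13 tested genes rose in Maternal_10Cyp, 11 in Paternal_0.3Cyp, 8 in Paternal_10Cyp, 3 in Both_10Cyp and 2 each in Maternal_0.3Cyp and Both_0.3Cyp. The counts of 2 lie not far from the 10.9% and 10.5% of all genes called higher there. Without Paternal_0.3Cyp replicate 8 only Cox5b and Cox7c of this complex were called in that group. Cox7b (ENSMUSG00000031231; chromosome X, 106015700 to 106022450, plus strand), a small subunit of the enzyme, was called in all 6 comparisons. Its lowest, median and highest levels were 42.3, 51.4 and 95.0 in Paternal_0.3Cyp, 42.4, 49.6 and 63.6 in Maternal_0.3Cyp, 43.5, 51.3 and 61.4 in Both_0.3Cyp, 39.0, 54.8 and 69.2 in Paternal_10Cyp, 52.4, 58.3 and 68.6 in Maternal_10Cyp, 44.8, 55.3 and 61.6 in Both_10Cyp, and 36.6, 44.5 and 54.1 in Ctrl (normalised CPM). The groups overlapped throughout, with 5 of 8 libraries of Maternal_10Cyp and 6 of 10 of Both_10Cyp above the highest Ctrl library. Its log2 fold changes ran from 0.21 ± 0.080 in Both_0.3Cyp to 0.39 ± 0.088 in Maternal_10Cyp (edgeR adjusted p = 0.0479 and 0.000584). Without Paternal_0.3Cyp replicate 8 Cox7b had 0.16 ± 0.061 in that group, not called (edgeR adjusted p = 0.0513).

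Cox7c, another small subunit of complex IV, had levels of 84.4, 95.8 and 103 normalised CPM in Maternal_10Cyp and 52.8, 68.3 and 82.5 in Ctrl (lowest, median and highest). The 2 groups did not overlap, and the log2 fold change was 0.49 ± 0.10 (edgeR adjusted p = 0.000252). Cox8a, the widely expressed isoform of the smallest subunit, rose by 0.27 ± 0.063 in Maternal_10Cyp and 0.18 ± 0.059 in Paternal_10Cyp (edgeR adjusted p = 0.000671 and 0.0239). Cox7a2l rose by 0.24 ± 0.072 in Maternal_10Cyp (edgeR adjusted p = 0.00535).

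Tissue-restricted isoforms of complex IV were scarce beside their common partners. Cox4i2, the isoform known from lung and low oxygen, made up a median of 0.348% of the Cox4i1 and Cox4i2 level per kb in Maternal_10Cyp and 0.428% in Ctrl, and over all groups the medians ran to 0.504%. Cox7a1, the heart and muscle isoform, had a median of 0.407% of its pair with Cox7a2 in Maternal_10Cyp and 0.343% in Ctrl, at a mean of 0.194 ± 0.119 CPM in Ctrl (SD, n = 12). Striated muscle markers were also low: 4 of 9 had no row in the table and the other 5 summed to 2.11 to 8.90 CPM in any library. Cox6b2, the testis isoform of subunit 6b, took a median of 1.43% of its pair with Cox6b1 in Paternal_10Cyp and 0.950% in Ctrl.

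Cox6b2 (ENSMUSG00000051811; chromosome 7, 4751792 to 4753094, minus strand) nonetheless had the largest fold changes of complex IV in Paternal_0.3Cyp, Both_0.3Cyp and Paternal_10Cyp, at levels of a few CPM or less. Its lowest, median and highest levels were 0.895, 1.48 and 2.54 CPM in Paternal_10Cyp, 0.682, 1.497 and 2.52 in Paternal_0.3Cyp, 0.783, 1.55 and 2.20 in Both_0.3Cyp and 0.427, 1.00 and 2.06 in Ctrl. These ranges overlap widely. It rose by 0.63 ± 0.21, 0.59 ± 0.21 and 0.55 ± 0.21 in those 3 groups (edgeR adjusted p = 0.0288, 0.0271 and 0.0450). Without replicate 8 it had 0.52 ± 0.21 in Paternal_0.3Cyp, not called (edgeR adjusted p = 0.0717). In Both_10Cyp it had 0.66 ± 0.21, not called (edgeR adjusted p = 0.0547), and in Maternal_10Cyp, where most members rose, 0.28 ± 0.23 (edgeR adjusted p = 0.347). Among the common partners Cox4i1, Cox6b1, Cox7a2 and Cox6a1 rose in Maternal_10Cyp by 0.20 ± 0.078, 0.22 ± 0.075, 0.28 ± 0.079 and 0.23 ± 0.088 (edgeR adjusted p = 0.0356, 0.0141, 0.00382 and 0.0278).

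In complex V 14 of 17 genes rose in Maternal_10Cyp, 12 in Paternal_0.3Cyp, 9 in Paternal_10Cyp, 5 in Both_10Cyp, 3 in Both_0.3Cyp and 2 in Maternal_0.3Cyp. The counts in Both_0.3Cyp and Maternal_0.3Cyp lie not far from the 10.5% and 10.9% of all genes called higher there. Without Paternal_0.3Cyp replicate 8 only Atp5d, Atp5e and Atp5k of this complex were called in that group. Atp5k (ENSMUSG00000050856; chromosome 5, 108433244 to 108434448, minus strand), subunit e of the membrane part, where the enzyme forms dimers, had the largest change of any member in both groups with an exposed mother at dose 10. Its lowest, median and highest levels were 16.8, 20.1 and 47.6 in Paternal_0.3Cyp, 15.5, 17.8 and 24.5 in Maternal_0.3Cyp, 17.1, 19.9 and 28.2 in Both_0.3Cyp, 14.2, 21.7 and 28.0 in Paternal_10Cyp, 23.0, 25.6 and 30.7 in Maternal_10Cyp, 19.5, 26.2 and 29.7 in Both_10Cyp, and 12.2, 15.9 and 21.003 in Ctrl (normalised CPM). All 8 libraries of Maternal_10Cyp and 9 of 10 of Both_10Cyp lay above the highest Ctrl library. Its log2 fold change was 0.67 ± 0.13 in Maternal_10Cyp (edgeR adjusted p = 0.000138), 0.69 ± 0.12 in Both_10Cyp (edgeR adjusted p = 0.000445) and 0.26 ± 0.12 in Maternal_0.3Cyp, where it was not called (edgeR adjusted p = 0.0963).

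Atp5mpl (ENSMUSG00000021290; chromosome 12, 111961375 to 111966977, minus strand), a small proteolipid of the membrane part, had levels of 35.7, 44.5 and 49.9 normalised CPM in Both_10Cyp, 37.0, 41.3 and 54.0 in Maternal_10Cyp and 24.5, 31.6 and 35.9 in Ctrl (lowest, median and highest). Maternal_10Cyp did not overlap with Ctrl, and 9 of 10 libraries of Both_10Cyp lay above it. The log2 fold changes were 0.50 ± 0.10 in Both_10Cyp and 0.49 ± 0.11 in Maternal_10Cyp (edgeR adjusted p = 0.00709 and 0.000626).

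Atp5j (ENSMUSG00000022890; chromosome 16, 84827866 to 84835625, minus strand), coupling factor 6 of the peripheral stalk, was the other gene called in all 6 comparisons. Its lowest, median and highest levels were 70.7, 85.6 and 140.1 in Paternal_0.3Cyp, 75.2, 89.5 and 97.4 in Maternal_0.3Cyp, 78.5, 88.2 and 104 in Both_0.3Cyp, 74.0, 92.6 and 109 in Paternal_10Cyp, 86.6, 101 and 114 in Maternal_10Cyp, 74.7, 94.9 and 101 in Both_10Cyp, and 61.2, 77.0 and 93.9 in Ctrl (normalised CPM). Of the Maternal_10Cyp libraries 7 of 8 exceeded every Ctrl library, against 3 of 12 in Paternal_0.3Cyp. Its log2 fold changes ran from 0.23 ± 0.066 in Paternal_0.3Cyp to 0.39 ± 0.073 in Maternal_10Cyp (edgeR adjusted p = 0.0103 and 0.000119). Without replicate 8 Atp5j had 0.14 ± 0.052 in Paternal_0.3Cyp, not called (edgeR adjusted p = 0.0594).

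The alpha and beta subunits of ATP synthase, its catalytic core, had the smallest called changes of complex V in Maternal_10Cyp. Atp5b (ENSMUSG00000025393; chromosome 10, 128083273 to 128090391, plus strand) had a lowest, median and highest level of 1129, 1163 and 1253 normalised CPM in Maternal_10Cyp and 981, 1057 and 1125 in Ctrl. The 2 groups did not overlap, yet the log2 fold change was only 0.16 ± 0.033 (edgeR adjusted p = 0.000289). Atp5a1 rose by 0.10 ± 0.035 there (edgeR adjusted p = 0.0210). The 3 genes of subunit c, the ring that turns in the membrane, encode the same mature protein and may share reads, so their split is uncertain. Atp5g3 rose by 0.21 ± 0.063 in Maternal_10Cyp (edgeR adjusted p = 0.00528), while Atp5g1 and Atp5g2 had 0.095 ± 0.067 and 0.20 ± 0.12 (edgeR adjusted p = 0.259 and 0.165). Atp5s, a factor B protein that is no part of the catalytic core, had -0.050 ± 0.13 (edgeR adjusted p = 0.785).

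**Figure D3:**
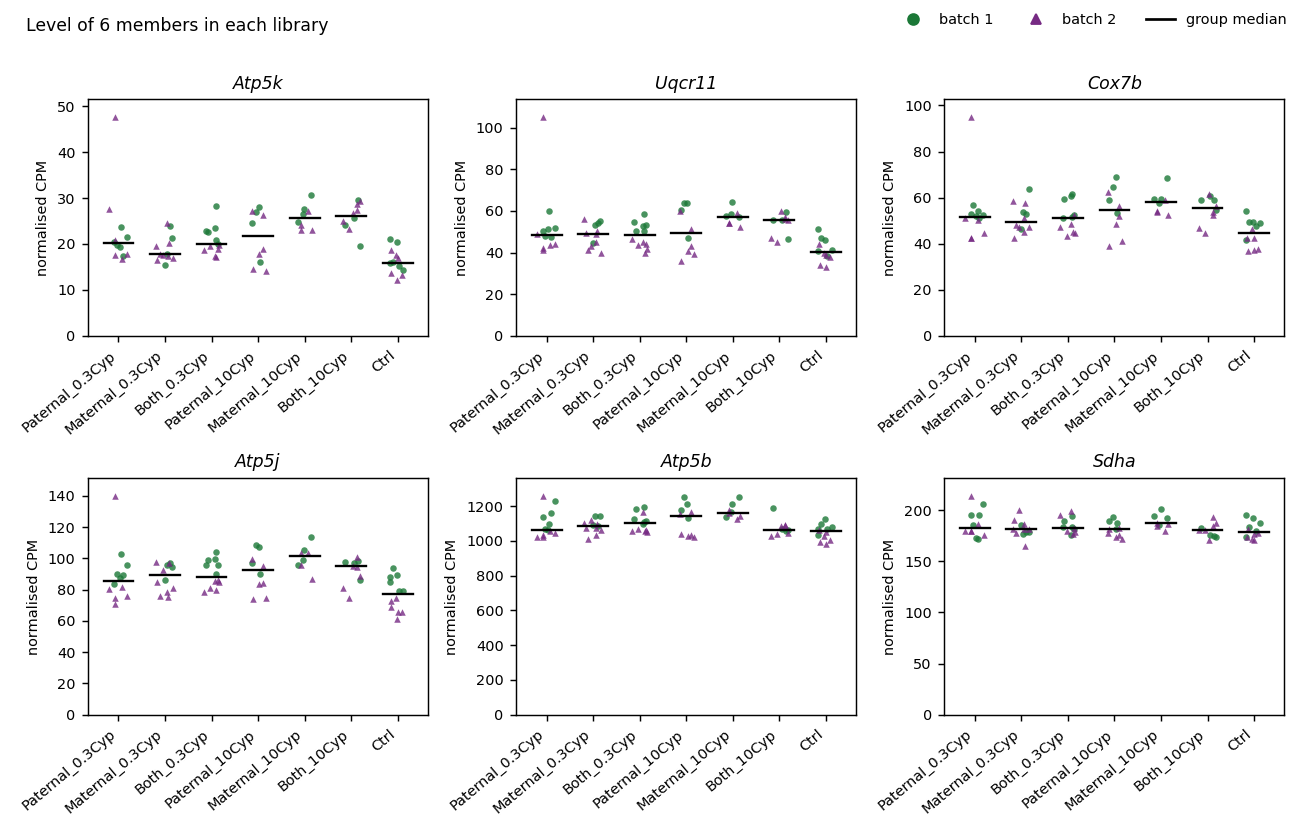
Level of Atp5k, Uqcr11, Cox7b, Atp5j, Atp5b and Sdha in each library (normalised CPM, each axis from 0), for the 6 exposed groups and Ctrl; green circles are batch 1, purple triangles batch 2 and black lines group medians. The Atp5k medians of Maternal_10Cyp and Both_10Cyp are 25.6 and 26.2 CPM against 15.9 in Ctrl, the Sdha medians differ little, and the single high point in Paternal_0.3Cyp is replicate 8.

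The rises in Paternal_0.3Cyp rested largely on replicate 8. Without it 7 of the 42 members were called, Uqcr11, Uqcrq, Cox5b, Cox7c, Atp5d, Atp5e and Atp5k, and the median log2 fold change was 0.083. That is 16.7% of the members, near the 15.8% of all genes called in the same fit (8.54% called higher). Atp5k had 0.32 ± 0.10 (edgeR adjusted p = 0.0253), against 0.48 ± 0.12 with it, and Cox7b 0.16 ± 0.061 (edgeR adjusted p = 0.0513), against 0.28 ± 0.080. In all 39 members stayed above 0, and Sdhb, Sdhc and Sdhd lost the call. Within batch 2, which holds replicate 8, 32 members were called with it and 0 without it (edgeR, each group with its own mean per batch; 11 at an unadjusted p under 0.05; 0.0558% of all genes called). With all libraries, 0 members were called when only Paternal_0.3Cyp and Ctrl were fitted (edgeR; 21 at an unadjusted p under 0.05), a fit that called none of 13717 genes. DESeq2 called 33 members and 28.8% of all genes, and limma voom, with weights for the spread of each library, 7 members and 19.7% of all genes.

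**Figure D4:**
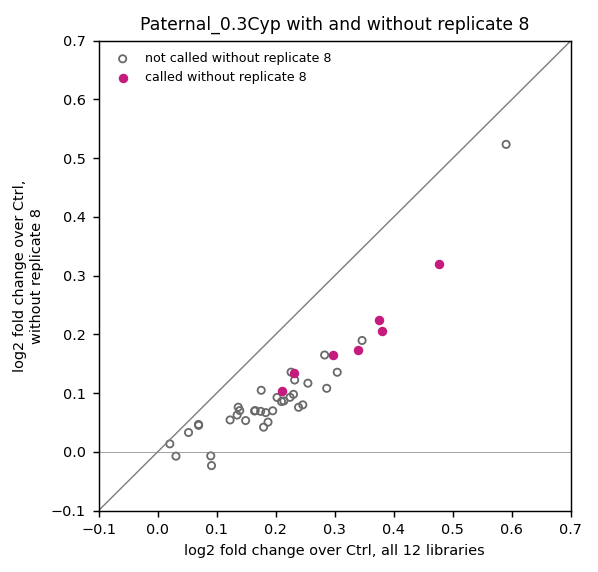
Log2 fold change over Ctrl of the 42 tested members in Paternal_0.3Cyp, with all 12 libraries (horizontal) and without replicate 8 (vertical); the grey diagonal marks equal values. Filled points are the 7 members called without replicate 8 (edgeR adjusted p under 0.05), and all 42 points lie below the diagonal.

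Within the batches the members were mostly higher as well. When every group had its own mean in each batch, 39 to 42 of the 42 were above 0 in each exposed group of each batch. The medians in batch 1 and batch 2 were 0.077 and 0.30 in Paternal_0.3Cyp, 0.097 and 0.17 in Maternal_0.3Cyp, 0.13 and 0.14 in Both_0.3Cyp, 0.23 and 0.18 in Paternal_10Cyp, 0.23 and 0.28 in Maternal_10Cyp, and 0.12 and 0.18 in Both_10Cyp. This fit called 0 members in batch 1 in each exposed group. In batch 2 it called 32, 6, 1, 6, 29 and 13 in the same order of groups. Its share over all genes was not counted. A joint test of batch by exposure called 0 members (edgeR, 1 at an unadjusted p under 0.05; DESeq2 and limma also 0), where 0% of all genes were called. The calls fell otherwise in another fit, with each batch alone. There 22 members were called in Maternal_10Cyp in batch 1 (3.25% of all genes) and 15 in batch 2 (27.5% of all genes). In Paternal_10Cyp 16 were called in batch 1 (1.31% of all genes) and 2 in batch 2, a smaller share than the 14.5% of all genes called there.

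With all libraries no member was called between the doses by edgeR. Paternal_10Cyp minus Paternal_0.3Cyp called 0 (1 at an unadjusted p under 0.05, DESeq2 1, limma 4; 0.0628% of all genes called). Maternal_10Cyp minus Maternal_0.3Cyp called 0 (12 at an unadjusted p under 0.05, DESeq2 0, limma 12; 0% of all genes), and Both_10Cyp minus Both_0.3Cyp called 0 (4 at an unadjusted p under 0.05, DESeq2 and limma 0; 0.00697% of all genes). The median differences of the members were -0.0042, 0.12 and 0.036 on the log2 scale, with 20, 40 and 30 of 42 above 0. Atp5k had 0.41 ± 0.13 between the maternal doses (edgeR p = 0.00186, adjusted 0.433). Between the paternal doses the result turned on replicate 8 again: without it 6 members were higher at dose 10, Uqcrc2, Uqcrfs1, Cox6c, Atp5c1, Atp5f1 and Atp5l, 14.3% of the members against 1.84% of all genes called, and the median was 0.10. Both_10Cyp minus Maternal_10Cyp, the comparison that adds an exposed father, called 0 (2 at an unadjusted p under 0.05, DESeq2 0, limma 6, all lower; 0% of all genes), with a median of -0.079 and 38 of 42 members below 0.

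Shorter transcripts showed larger differences. Across the 42 members the rank correlation of log2 fold change with transcript length was -0.76 in Maternal_10Cyp and -0.75 in Both_10Cyp, and between -0.64 and -0.74 in the other groups. Over 14327 genes the same correlation was -0.47 in Maternal_10Cyp, -0.38 in Both_10Cyp and -0.36 to -0.44 in the other groups. These are descriptions across genes of the same libraries. Atp5mpl and Atp5k are the shortest tested members, with 366 and 371 bases, and Sdha, with 2900, is the third longest. With offsets per library for GC content and transcript length, 10 members were called in Maternal_10Cyp, all higher: Sdhc, Uqcr11, Uqcrq, Cox7b, Cox7c, Atp5b, Atp5f1, Atp5j, Atp5j2 and Atp5k, where 32.4% of all genes were called. In Both_10Cyp 5 were called, Uqcr11, Cox7b, Atp5j, Atp5k and Atp5mpl, where 2.62% of all genes were.

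Under these offsets the medians fell to between 0.013 and 0.053 over the 6 comparisons against 0.13 to 0.24 without them. Atp5k had 0.35 ± 0.081 in Maternal_10Cyp and 0.41 ± 0.076 in Both_10Cyp (edgeR adjusted p = 0.00104 and 0.00101). Uqcr11 had 0.21 ± 0.046 and Cox7b 0.14 ± 0.044 in Maternal_10Cyp (edgeR adjusted p = 0.000854 and 0.00978). Paternal_0.3Cyp, Maternal_0.3Cyp, Both_0.3Cyp and Paternal_10Cyp had 4, 3, 2 and 3 calls, against 20.3%, 18.1%, 17.3% and 8.83% of all genes. Atp5g3 was called lower in Maternal_0.3Cyp and Both_0.3Cyp, where it was not called without the offsets. Offsets take out whatever runs with length, and which part of the difference came from the tissue and which from the libraries was not tested.

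**Figure D5:**
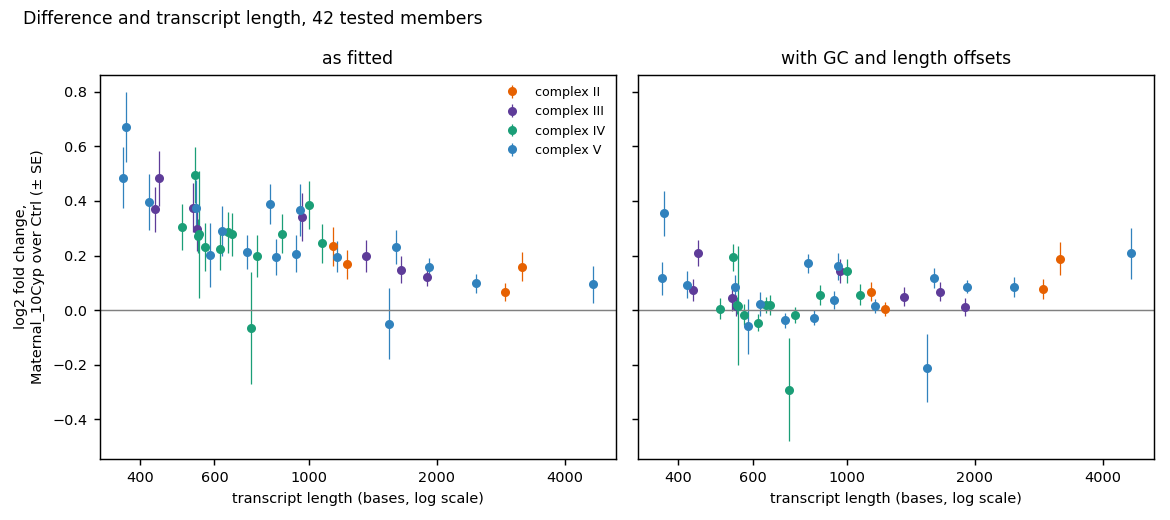
Log2 fold change of the 42 tested members in Maternal_10Cyp over Ctrl (bars, SE) against transcript length in bases (log scale), coloured by complex, as fitted (left) and with GC and length offsets (right). The members with the shortest transcripts reach 0.67 on the left, and on the right the median is 0.053.

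Genes that work with complexes II to V were counted in the same way, with all libraries. The counts of these genes, and of the cell markers below, were not made without Paternal_0.3Cyp replicate 8. Of 36 nuclear subunits of complex I tested, 31 rose in Maternal_10Cyp, 30 in Paternal_0.3Cyp, 21 in Paternal_10Cyp, 8 in Both_10Cyp, 5 in Both_0.3Cyp and 4 in Maternal_0.3Cyp, with none lower. The shares of all genes called higher in these groups were 20.4%, 15.4%, 10.7%, 2.34%, 10.5% and 10.9%, so the counts in Both_0.3Cyp and Maternal_0.3Cyp lie near the background. In Paternal_0.3Cyp the summed complex I level had a lowest, median and highest value of 1959, 2213 and 4115 CPM. In Ctrl these were 1835, 2008 and 2263. Of 35 assembly factors of complexes II to V, 18 rose in Maternal_10Cyp, 11 in Paternal_0.3Cyp, 7 in Paternal_10Cyp and 3 in Both_10Cyp. In Both_0.3Cyp 8 rose and in Maternal_0.3Cyp 6, with none lower in any group. The shares of all genes called in either direction were 40.8%, 27.6%, 21.5%, 3.91%, 22.3% and 23.7%. The counts in Paternal_0.3Cyp, Paternal_10Cyp, Both_0.3Cyp and Maternal_0.3Cyp lie near these shares, although all were higher. Cytochrome c (Cycs), cytochrome c1 (Cyc1) and the heme lyase Hccs all rose in Maternal_10Cyp (Cyc1 is itself a subunit of complex III that the symbol rule does not reach), by 0.16 ± 0.062, 0.17 ± 0.037 and 0.22 ± 0.049 (edgeR adjusted p = 0.0284, 0.000331 and 0.000502). Of 17 citric acid cycle genes 7 rose and 1 fell in Maternal_10Cyp, and of 15 regulators of mitochondrial biogenesis 4 rose and 2 fell, shares near the 40.8% of all genes called there.

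Of the 13 protein-coding genes transcribed inside the mitochondrion, 2 were called in Maternal_10Cyp (40.8% of all genes), 3 in Both_10Cyp (3.91%) and 1 in Paternal_10Cyp (21.5%). In Both_0.3Cyp 1 was called (22.3%), and in Paternal_0.3Cyp and Maternal_0.3Cyp 0 (27.6% and 23.7%). Of 13, 2 rose in Maternal_10Cyp, mt-Atp8 by 0.51 ± 0.11 and mt-Nd4l by 0.41 ± 0.15 (edgeR adjusted p = 0.000290 and 0.0187), and their median log2 fold change was 0.015. Their summed level had a lowest, median and highest value of 14528, 16244 and 17522 CPM in Maternal_10Cyp and 13702, 16127 and 19574 in Ctrl, ranges that overlap. In Both_10Cyp mt-Atp8 and mt-Nd4l rose and mt-Atp6 fell. In Paternal_10Cyp 1 was called, but 12 of 13 were above 0 with a median of 0.096, and Paternal_10Cyp minus Paternal_0.3Cyp had all 13 above 0, none called. Partner subunits of complex IV made in the mitochondrion, mt-Co1 and mt-Co2, had 0.015 ± 0.061 and 0.0036 ± 0.12 in Maternal_10Cyp (edgeR adjusted p = 0.867 and 0.984).

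Markers of dividing and progenitor cells rose in Maternal_10Cyp, where 20.4% of all genes were called higher. Of 8 proliferation genes 6 rose in Maternal_10Cyp, and their summed level ran from 676 to 931 CPM in Maternal_10Cyp and from 444 to 901 in Ctrl. Of 8 intermediate progenitor markers 7 rose, with sums from 728 to 903 CPM in Maternal_10Cyp and from 436 to 843 in Ctrl. Of 8 cortical neuron markers 3 fell and 1 rose, with sums from 4071 to 4592 CPM in Maternal_10Cyp and from 4516 to 5618 in Ctrl. Of 8 radial glia markers 5 rose and 1 fell, with sums from 1535 to 1880 CPM in Maternal_10Cyp and from 1228 to 1595 in Ctrl. Over the other groups, 7 intermediate progenitor and 6 proliferation markers rose in Paternal_0.3Cyp, 7 and 5 in Maternal_0.3Cyp, and 5 and 6 in Both_0.3Cyp. In Paternal_10Cyp 4 and 5 rose, and in Both_10Cyp 1 and 2. The shares of all genes called higher in these groups, in that order, were 15.4%, 10.9%, 10.5%, 10.7% and 2.34%. No marker of these lists was absent from the table, and their part in the difference of the members was not tested. Diencephalon markers were high in Paternal_0.3Cyp replicates 6 and 9, Paternal_10Cyp replicate 1 and Ctrl replicate 3, with sums of 161, 493.2, 111 and 187 CPM, and 6 of 8 rose in Paternal_0.3Cyp. Embryonic globin transcripts were high in 2 libraries of Paternal_0.3Cyp (replicates 3 and 4) and 2 of Both_10Cyp (replicates 7 and 8), up to 82.0 and 11.9 CPM, against at most 1.40 in Ctrl. Without these libraries 27 members were called in Paternal_0.3Cyp, against 14.8% of all genes. In Both_10Cyp 1 was called, against 0.0699% of all genes, and 18 had an unadjusted p under 0.05 by edgeR.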

How the data were processed

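RNA-seq was measured in 76 embryo libraries. The submitters' processing notes name Trim Galore 0.5.0, Salmon 1.10.1 and the build mm10, without their roles. The authors deposited 1 table of genes by libraries, treated here as a table of expected counts because Salmon estimates them; its values are whole numbers, and how they were made whole is not given in the sources used here. Such estimates split reads between near-identical copies, so such genes are less certain.

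The members and all gene lists were chosen with earlier results of these data known. Genes were filtered with filterByExpr on group, which removed 484 of 14823, and scaled by TMM. The main test was edgeR 4.0.16 (R 4.3.3), a robust quasi-likelihood fit over all 76 libraries with group, batch and sex, 2-sided, adjusted over all genes tested by Benjamini-Hochberg. Totals ran from 17735597 to 41419156 counts per library. The closest of 382 pairs of libraries within groups differed by a chi-square of 3.72 per gene, so none was counted as a duplicate.

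Members named were, for each complex, the 3 with the lowest joint p at a mean of at least 1 CPM, the 2 largest called changes of each comparison, the tissue isoforms with their partners, the subunit c genes and the core subunits Sdha, Sdhb, Uqcrc1, Uqcrfs1, Atp5a1 and Atp5b. Others named in counts were chosen after their values were seen. Alternatives used DESeq2 1.42.0, limma 3.58.1, sva 3.50.0, other filters, terms, scalings and samples. The fits without Paternal_0.3Cyp replicate 8 in the dose, joint and within-batch results were added after seeing the data. Promoters were searched for an 8-letter core of the NRF1 motif after a longer form of it had been tried. The main edgeR test was tried on simulated counts with known changes in Maternal_10Cyp, scored for that group against Ctrl only.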

Additional observations from a re-analysis of the deposited data

Results flagged for a closer look

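Only the groups of 8 and 10 libraries, Paternal_10Cyp, Maternal_10Cyp and Both_10Cyp, were screened, not the groups of 12. In 12 of 84 sets of values, each 1 named member or the share of all members in 1 group, a library lay far from the others of its group, and chance alone gives about 1 in 20. The sets share libraries and are not independent, so no excess over chance can be read from this count. Maternal_10Cyp replicate 1 was the high library for 8 members: Sdhb at 166, Sdhc at 136, Cox7b at 68.6, Cox6b1 at 162, Cox7a2 at 119.6, Atp5g1 at 121, Uqcrc1 at 252 and Uqcrfs1 at 166 normalised CPM. Cox4i2 stood apart at 1.84 CPM in Maternal_10Cyp replicate 2 and at 2.14 CPM in Both_10Cyp replicate 5. Atp5g2 was at 22.8 CPM in Paternal_10Cyp replicate 2, and Atp5b at 1189.8 CPM in Both_10Cyp replicate 2.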

How the results depend on the processing

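The counts of called members were recomputed under the alternatives, except that the joint test has no fit with only the groups compared, and batch by exposure none with that, without a batch term or in 1 batch. Percentages in brackets are the shares of all genes called in the same fit. With limma voom the count was 7 (19.7%) in Paternal_0.3Cyp, 24 (34.6%) in Maternal_0.3Cyp, 35 (36.8%) in Both_0.3Cyp and 21 (6.65%) in Both_10Cyp. It was 33 (39.7%) in the joint test, and 4 (1.3%) and 12 (2.94%) between the paternal and maternal doses. For Both_10Cyp minus Maternal_10Cyp it was 6 (17.2%). With only the groups compared it was 0 (0%), 30 (33.8%), 35 (35.1%) and 24 (4.03%) in Paternal_0.3Cyp, Maternal_0.3Cyp, Both_0.3Cyp and Both_10Cyp. With a globin covariate it was 0 in each group of dose 0.3 by edgeR (0.307%, 1.19% and 0.0697%). There 35, 17 and 17 members had an unadjusted p under 0.05 by edgeR. The count was 9 (4.03%) in the joint test. Batch 1 alone gave 0 (0.028%), 0 (0%), 0 (0%), 16 (1.31%), 22 (3.25%) and 0 (0%) over the 6 groups in the order of the opening. In the joint test it gave 0 (0%). Batch 2 alone gave 16 (9.12%), 2 (16.1%), 0 (9.19%), 2 (14.5%) and 15 (27.5%) in the first 5 groups, and 1 (5.94%) in the joint test. GC and length offsets gave 4 (20.3%), 3 (18.1%), 2 (17.3%), 3 (8.83%), 10 (32.4%) and 5 (2.62%) over the 6 groups. In the joint test they gave 6 (13.1%). Without a batch term the count was 0 (16.9%) in Maternal_0.3Cyp, 3 (19%) in Both_0.3Cyp, 15 (13.1%) in Paternal_10Cyp and 2 (0.384%) in Both_10Cyp. In the joint test it was 10 (16%). With 2 surrogate variables it was 0 in Maternal_0.3Cyp and Both_0.3Cyp (0.495% and 3.87%). Without libraries high in diencephalon markers it was 5 (16.1%) in Both_0.3Cyp, 10 (10.4%) in Paternal_10Cyp and 13 (16%) in the joint test. Without those high in embryonic globins it was 1 (0.0699%) in Both_10Cyp and 2 (8.15%) for Both_10Cyp minus Maternal_10Cyp. DESeq2, its size factors and no filter each gave 1 between the paternal doses (0.404%, 0.126% and 0.115%). Where edgeR called 0, the members at an unadjusted p under 0.05 numbered 21 in Paternal_0.3Cyp with only the groups compared, 8, 9, 27 and 20 in Paternal_0.3Cyp, Maternal_0.3Cyp, Both_0.3Cyp and Both_10Cyp in batch 1 alone (29 in its joint test), 3 in Both_0.3Cyp in batch 2 alone, 9 in Maternal_0.3Cyp without a batch term, and 26 and 28 in Maternal_0.3Cyp and Both_0.3Cyp with 2 surrogate variables. The cause was not tested.

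With the replicate block the count was 15 in Both_0.3Cyp, 11 in Paternal_10Cyp, 22 in Maternal_10Cyp and 9 in the joint test. Of all genes 25.9%, 16.6%, 32% and 19.3% were called there. The numbers do not pair the libraries: 73 of 210 same-numbered pairs correlated over 0.1, with a mean of 0.018.

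Each library was left out only for the comparisons that use its group and for the joint test. Paternal_0.3Cyp replicate 8 thus stayed in the fits of all comparisons without its group, as part of their shared estimate of spread. Leaving out 1 library at a time gave 7 to 35 called members in Paternal_0.3Cyp, 2 to 10 in Maternal_0.3Cyp, 2 to 13 in Both_0.3Cyp, 15 to 29 in Paternal_10Cyp, 32 to 37 in Maternal_10Cyp, 2 to 16 in Both_10Cyp, 11 to 35 in the joint test and 0 to 6 between the paternal doses. Between the paternal doses it was 6 without Paternal_0.3Cyp replicate 8, and 1 without Paternal_0.3Cyp replicate 1, 4, 6 or 12 or Paternal_10Cyp replicate 7 or 9. It gave 0 in the other differences, and was not run for batch by exposure. The count moved by over 1.5 times in Paternal_0.3Cyp without its own replicate 8 (7), in Maternal_0.3Cyp without Ctrl replicate 1 (10) or 7 (3) or its own 5 (2), and in Paternal_10Cyp without its own 1 (16), 2 (15) or 5 (16). In Both_0.3Cyp it did so without Ctrl replicate 1 (13), 3, 4, 5 or 9 (5 each), 7 (2), 8 (3) or 12 (4), or its own 2 (3), 6 (5) or 7 (4). In Both_10Cyp it did so without Ctrl replicate 7 (3) or 8 (5), or its own 3 (16), 7 (3) or 8 (2), and in the joint test without Ctrl replicate 7 (13) or 8 (11), or Paternal_0.3Cyp replicate 8 (35). The number of all genes called moved too. It ran from 2262 to 4960 in Paternal_0.3Cyp, 2166 to 4103 in Maternal_0.3Cyp and 2042 to 4013 in Both_0.3Cyp. At dose 10 it ran from 1709 to 3840 in Paternal_10Cyp, 5056 to 6235 in Maternal_10Cyp and 29 to 1625 in Both_10Cyp. In the joint test it was 1866 to 4565, and between the paternal doses 0 to 264.

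Of 1241 alternative values of the 73 named calls, 902 kept direction and call, 328 kept direction only, and 11 turned round, all with GC and length offsets. In Paternal_0.3Cyp these were Sdhd at -0.0098, Uqcr10 at -0.0068, Cox8a at -0.032, Cox4i1 at -0.015, Cox6b1 at -0.028, Cox7a2 at -0.0076 and Atp5g3 at -0.036, and in Maternal_10Cyp Cox4i1 at -0.018, Cox6a1 at -0.016, Cox6b1 at -0.047 and Atp5g3 at -0.037. Depth limits Cox6b2, Cox4i2 and Cox7a1 most.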
